A study of Mus musculus with 6 samples.

Results

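The antioxidant enzymes and glutathione transferases were followed across brown and white fat of the mouse. They were taken as every probe set whose only gene symbol in the platform annotation is a numbered superoxide dismutase (Sod), glutathione peroxidase (Gpx), peroxiredoxin (Prdx) or glutathione transferase (Gsta, Gstm, Gstp, Gstt, Gsto, Gstz or Gstk), together with Gsr, Gclc, Gclm, Gss, Txn1, Txn2, Txnrd1, Txnrd2, Mgst1, Mgst2 and Mgst3. This gave 79 probe sets for 45 genes, of 18193 genes with a probe set of their own on the array. The tissues were interscapular brown fat and epididymal white fat of male C57BL/6 mice of 10 to 12 weeks, untreated and at ambient temperature. The labels name no transgene or other allele. RNA of each tissue from 3 mice went to 3 separate arrays, so that 3 brown arrays faced 3 white arrays. All brown fat was interscapular and all white fat epididymal, and kind of fat and body site cannot be told apart.

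Superoxide dismutases turn superoxide, a by-product of respiration, into hydrogen peroxide. Glutathione peroxidases and peroxiredoxins then reduce the peroxide with electrons from glutathione or thioredoxin, which glutathione reductase and the thioredoxin reductases recharge from NADPH. Glutathione transferases join glutathione to reactive molecules such as the aldehydes that arise from oxidised lipids. Several of these steps have separate enzymes in the cytosol, the mitochondrial matrix, the endoplasmic reticulum and outside the cell. Brown fat oxidises fat in abundant mitochondria to make heat, and white fat stores triglyceride.

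Of the 45 genes, 34 had a probe set detected as present on 3 or more of the 6 arrays and were tested. Of these, 13 were higher in brown fat, 13 were higher in white fat and 8 were not called. A gene is described as higher where its adjusted p from limma was under 0.05. Among all 10264 genes tested, 27.7% were higher in brown and 32.2% in white fat, and the counts of members are read against these shares, from which no test of the members as a group was made. At least 2-fold differences were found for 6 members in each direction, against a background of 10.9% higher in brown and 14.4% higher in white fat. The 3 brown and 3 white arrays did not overlap for 26 of the 34 genes, against 67.3% of all genes tested. The median log2 difference, brown minus white, was 0.08 over the 34 members and -0.04 over all genes tested. Mitochondrial Sod2, Prdx3, Txn2 and Txnrd2 and also Gpx8, Gsta4 and Gsto1 were higher in brown fat, and Gsta3, Mgst3, Gstm1, Gstm2, Gstt1 and Gstz1 were higher in white fat. The mitochondrial grouping was made after the values were seen and has no test, and Gpx1 and Mgst1, which lie partly in mitochondria, were higher in white fat. With a background this high, calls in both directions inside a family are no finding about that family. The other 11 genes, Gpx2, Gpx5, Gpx6, Gsta2, Gstm3, Gstm6, Gstp3, Gstt3, Gstt4, Gsto2 and Mgst2, were present on too few arrays to be tested.

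**Figure D1:**
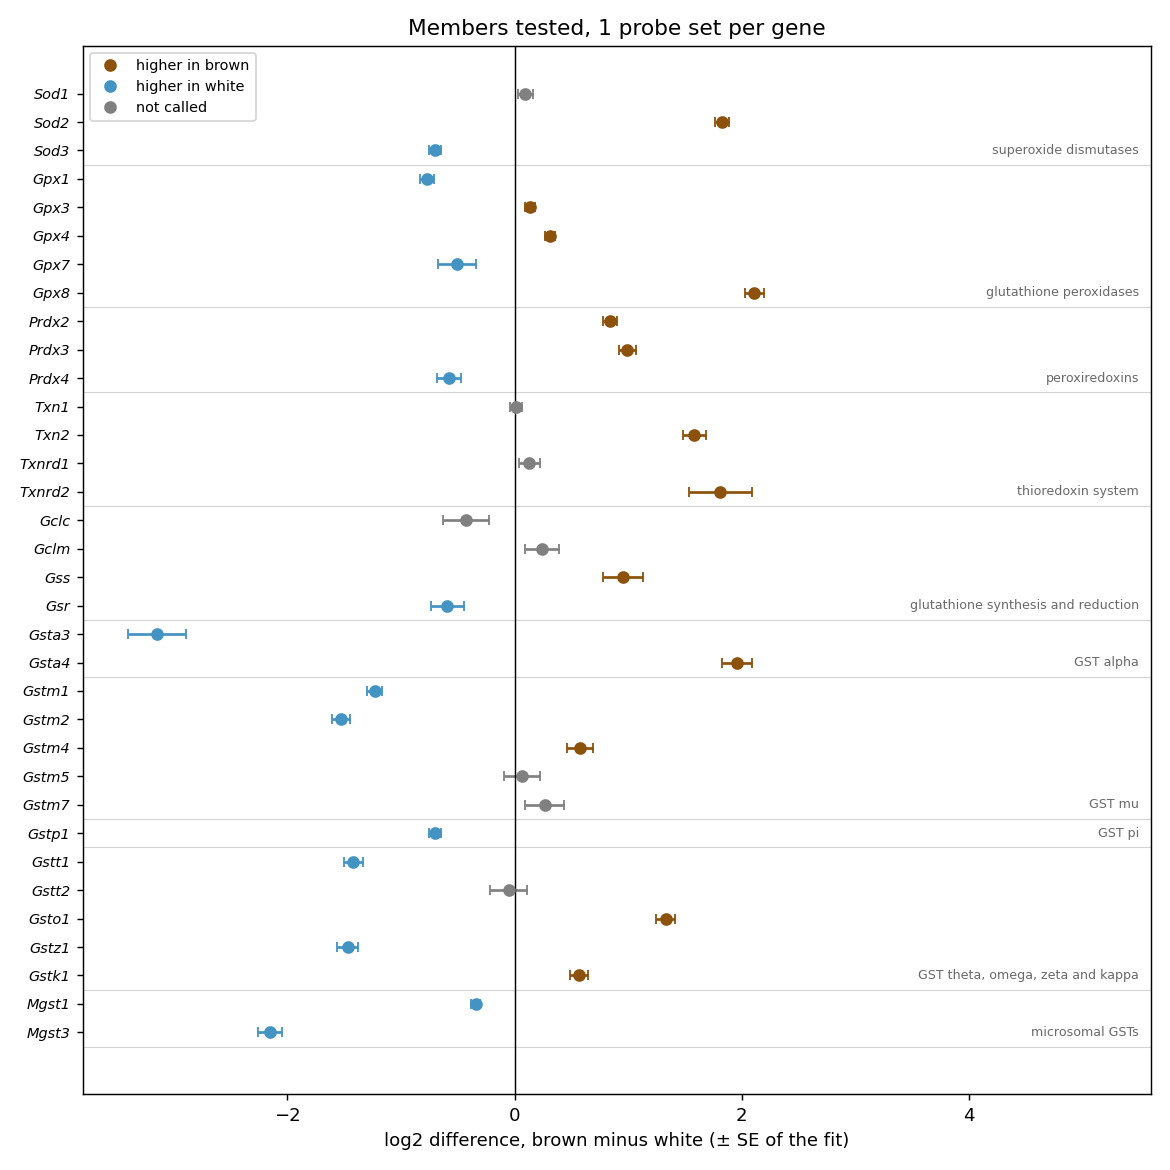
Log2 difference (x axis, brown minus white) of the 34 tested genes, grouped by enzyme family, with bars of ± 1 SE of the fit. Points right of the line at 0 are brighter in brown fat, and families such as the mu class hold points on both sides, from -1.53 for Gstm2 to 0.57 for Gstm4.

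By probe set, 22 of the 56 tested members were higher in brown fat, 18 were higher in white fat and 16 were not called, against 24.6% and 29.9% of all probe sets tested. Among the 15 genes with several tested probe sets, 0 had probe sets called in opposite directions. Another 16 probe sets of the members were called absent on all 6 arrays.

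The arrays differed in ways that touch these counts. Probe sets called present made up 36.6% ± 0.947 of a brown array and 45.4% ± 0.289 of a white array (SD, n = 3), and the median deposited signal was 38.5 ± 0.902 and 52.4 ± 0.231. Signals were therefore quantile-normalised between arrays, and values below are normalised signals on the linear scale unless stated. With the deposited scaling, 10 members were called for brown and 16 for white fat, while 14.9% and 55.8% of all genes were. With arrays scaled to the spike-in controls, these counts were 10 and 15, against 13.4% and 51.8% of all genes. With centring on the array median, they were 16 and 12, against 27.4% and 32.3%. The actin 3'/5' ratio, a measure of RNA integrity, was highest on brown replicate 2, at 2.24, and between 1.19 and 1.73 on the other 5 arrays. Without brown replicate 2, the members called numbered 13 for brown and 12 for white fat, with no share of all genes given for that fit.

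**Figure D2:**
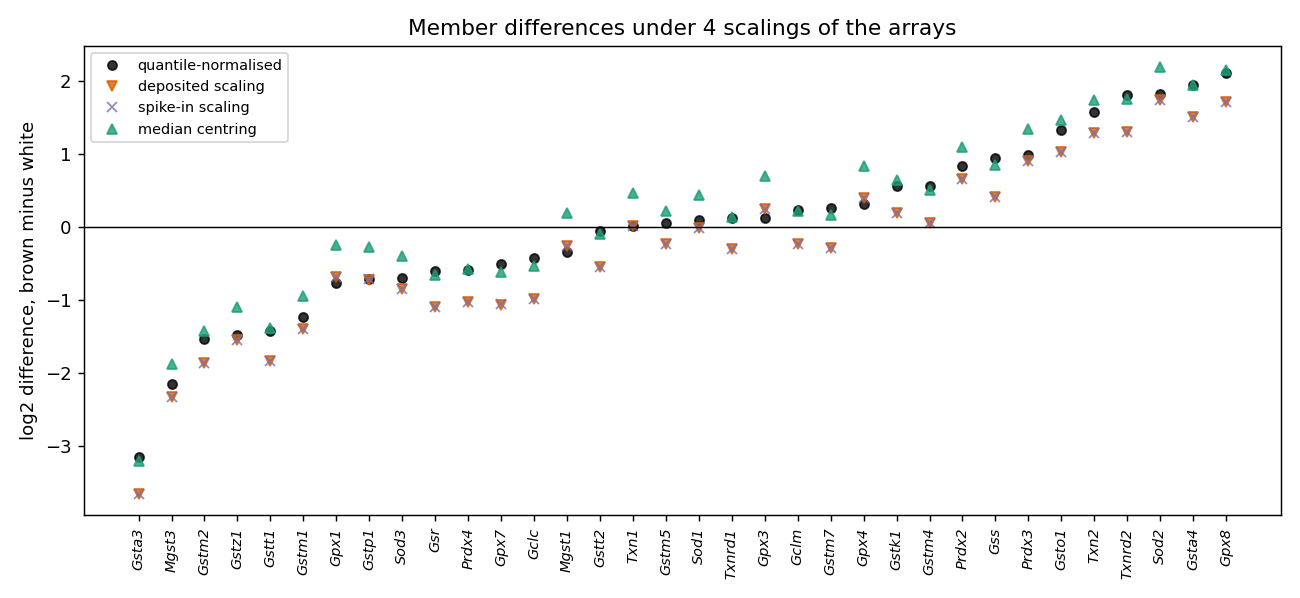
Log2 difference, brown minus white (y axis), of each tested gene under quantile normalisation, the deposited scaling, scaling to the spike-in controls and centring on the array median. Genes at the ends of the order keep their sign under all 4 scalings, and genes nearer 0, such as Txnrd1 and Mgst1, change side.

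Markers of other cells moved with the tissues. All 9 brown adipocyte markers were higher in brown fat and all 6 white adipocyte markers were higher in white fat. Ucp1, the uncoupling protein of brown fat, gave 13251, 12788 and 12788 on the brown arrays and was called absent on all white arrays (at least 877-fold higher, adjusted p = 1.83e-06, limma). Of the macrophage markers, 9 of 10 were higher in white fat, and their summed signal was 2954 to 3434 on brown and 18744 to 19526 on white arrays. All 9 mesothelial markers were higher in white fat, with sums of 302 to 346 and 3778 to 3904, and 6 of them were absent on all brown arrays. All 7 fibroblast markers were higher in white fat, with sums of 9369 to 10106 and 35312 to 36221, as were 3 of 6 endothelial markers, with sums of 2029 to 2216 and 2694 to 2856. Of 6 epididymis markers, 5 were absent on all 6 arrays and the other, Rnase10, was not called between the tissues. Of the red cell markers 0 of 2 tested were called, and of 7 skeletal muscle markers only Acta1 was tested and it was not called. With the deposited scaling Rnase10 (-0.72, adjusted p = 0.0444) and Acta1 (-2.98, adjusted p = 0.0496) were called higher in white fat. With the spike-in scaling Acta1 was (-2.98, adjusted p = 0.0105) and Rnase10 was not (-0.72, adjusted p = 0.051). The part of these cells in the differences below was not tested, and in whole tissue fewer cells of a type and less RNA per cell cannot be told apart.

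Upstream sequence was read for the 2 genes that differed most in either direction and have an entry in the RefSeq promoter table (GRCm38.p6), to show what lies before their starts. Each line below is the 250 bases before the annotated start, read 5′ to 3′ on the strand of the gene, and the capitals mark the letters TGACNNNGC, a core of the antioxidant response element to which NRF2 binds.
Gsta3, chr1:21240335-21240584, plus strand: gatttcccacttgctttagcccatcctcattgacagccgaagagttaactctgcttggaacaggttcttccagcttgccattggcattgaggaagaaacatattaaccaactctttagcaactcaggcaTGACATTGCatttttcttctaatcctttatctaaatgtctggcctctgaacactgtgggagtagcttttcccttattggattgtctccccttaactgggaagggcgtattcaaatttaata
Mgst3, chr1:167393842-167394091, minus strand: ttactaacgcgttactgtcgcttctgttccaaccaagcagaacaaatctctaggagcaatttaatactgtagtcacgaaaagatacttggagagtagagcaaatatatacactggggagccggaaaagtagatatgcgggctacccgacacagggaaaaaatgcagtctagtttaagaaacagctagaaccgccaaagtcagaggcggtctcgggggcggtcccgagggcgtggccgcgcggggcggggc
Gpx8, chr13:113046389-113046638, minus strand: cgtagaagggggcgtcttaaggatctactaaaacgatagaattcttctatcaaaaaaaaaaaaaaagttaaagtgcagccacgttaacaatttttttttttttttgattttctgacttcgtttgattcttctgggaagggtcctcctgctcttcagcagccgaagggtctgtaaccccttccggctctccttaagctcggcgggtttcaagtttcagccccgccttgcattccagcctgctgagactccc
Sod2, chr17:13007589-13007838, plus strand: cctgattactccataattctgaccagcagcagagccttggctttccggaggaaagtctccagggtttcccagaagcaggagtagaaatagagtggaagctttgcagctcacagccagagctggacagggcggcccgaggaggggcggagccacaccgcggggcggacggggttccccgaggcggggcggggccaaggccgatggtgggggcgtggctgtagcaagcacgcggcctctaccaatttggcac
The GC content of these windows was 42.0% for Gsta3, 51.6% for Mgst3, 44.8% for Gpx8 and 63.6% for Sod2, against a median of 52.4% (interquartile range 45.2% to 61.2%) over all such windows. The window of Gsta3 held 2 CpG dinucleotides, that of Mgst3 17, that of Gpx8 10 and that of Sod2 15.

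The letters TGACNNNGC were searched on both strands from 250 bases before to 50 bases after each start. They occurred in 7 of the 40 member genes with an entry (17.5%) and in 14% of 27025 genes. The 7 matches are shown with 10 bases on each side, turned so that the motif, in capitals, reads TGAC first; the strand is that of the printed letters.
Gclm, chr3:122245413-122245441, minus strand: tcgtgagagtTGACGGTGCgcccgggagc
Gsta3, chr1:21240454-21240482, plus strand: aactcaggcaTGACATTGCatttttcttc
Gstm5, chr3:107895802-107895830, plus strand: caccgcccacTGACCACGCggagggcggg
Gstm7, chr3:107931725-107931753, minus strand: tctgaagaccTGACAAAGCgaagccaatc
Mgst1, chr6:138140461-138140489, minus strand: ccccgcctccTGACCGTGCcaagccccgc
Sod1, chr16:90220696-90220724, minus strand: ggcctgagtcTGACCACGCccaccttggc
Txnrd1, chr10:82859104-82859132, minus strand: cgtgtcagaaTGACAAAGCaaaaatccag
Matches began 42 to 134 bases before the start. By the call of the gene, 0 of 12 genes higher in brown fat, 2 of 11 higher in white fat, 5 of 6 not called and 0 of 11 not tested held a match. The letters TCAAGGTCA, an element bound by oestrogen-related receptors, were found in 0 of the 40 genes and in 0.466% of all genes. These are matches of letters and not binding sites.

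Of the superoxide dismutases, 1 was higher in each tissue and 1 was not called. Sod2, the manganese enzyme of the mitochondrial matrix, gave 5166, 5123 and 5137 on the brown arrays and 1452, 1552 and 1346 on the white arrays. Every brown array lay above every white array, and the difference was 3.55-fold (log2 difference 1.83, SE 0.06, adjusted p = 7.45e-09, limma). The other 3 probe sets of Sod2 were also higher in brown fat, with log2 differences of 1.25, 2.05 and 2.12. Sod1, the copper-zinc enzyme of the cytosol, gave 2629, 2753 and 2558 in brown fat and 2359.9, 2692 and 2387 in white fat. The tissues overlapped and Sod1 was not called (log2 difference 0.10, SE 0.06, adjusted p = 0.238). With centring on the array median this probe set was called higher in brown fat (0.44, adjusted p = 0.000238). Its 3 other tested probe sets were not called either, and each leaned to white fat (-0.36, -0.18 and -0.07). The one at -0.36 was called higher in white fat once arrays were centred on their median (-0.46, adjusted p = 0.0258). Deposited scaling also called it for white fat (-0.91, adjusted p = 0.0005), and the one at -0.18 too (-0.71, adjusted p = 0.00328). Spike-in scaling called all 3 for white fat (-0.91, -0.71 and -0.30). Sod3, the copper-zinc enzyme secreted to the extracellular matrix, gave 1718, 1718 and 1689 in brown fat and 2814, 2795 and 2707 in white fat. It was 1.62-fold higher in white fat on all 3 arrays (log2 difference -0.70, SE 0.05, adjusted p = 1.73e-06), and its second probe set was not called (-0.28, adjusted p = 0.181). Ccs, the chaperone that loads copper into Sod1, is not a member but was among the genes of peroxide removal, and it was 3.97-fold higher in brown fat (517 ± 9.26 against 130.4 ± 3.75, SD, n = 3; adjusted p = 1.03e-07).

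In the thioredoxin system both mitochondrial proteins were higher in brown fat and neither cytosolic one was called. Txn2, the mitochondrial thioredoxin, gave 2126, 2015 and 1615 in brown fat and 656, 639 and 613 in white fat. It was 3.00-fold higher in brown fat (log2 difference 1.58, SE 0.10, adjusted p = 6.14e-07), and its 2 other probe sets were called the same way, at 1.59 and 1.66. Txnrd2, the mitochondrial thioredoxin reductase and a selenoprotein, was dim and gave 201, 128 and 242 in brown fat and 66.3, 57.0 and 38.0 in white fat. The tissues did not overlap and it was 3.51-fold higher in brown fat (1.81, SE 0.28, adjusted p = 0.000321). This call rests on 1 tested probe set, marked as reading several transcripts, and without such probe sets Txnrd2 could not be tested. A further probe set of Txnrd2, present on 2 brown arrays and so not tested, gave 333, 241 and 291 in brown fat and 75.8, 73.4 and 55.6 in white fat. Txn1, the cytosolic thioredoxin, gave 3361, 3409 and 3135 in brown fat and 3372, 3263 and 3181 in white fat. Its tissue means were nearly level (log2 difference 0.013, SE 0.05, adjusted p = 0.858). Among the alternatives run on the array files, Txn1 was called higher in brown fat only with centring on the array median (0.46, adjusted p = 4.59e-05). A further probe set of Txn1 was absent on all 6 arrays and so not tested. That probe set gave 432, 715 and 557 in brown fat and 330, 188 and 214 in white fat, which did not overlap. Txnrd1, the cytosolic reductase, gave 483, 510.3 and 452 in brown fat and 411, 468 and 441 in white fat, which overlapped. It was not called (0.13, adjusted p = 0.263), and with the deposited scaling it was called higher in white fat (-0.30, adjusted p = 0.0147).

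Most peroxiredoxins are recharged by thioredoxins. The members held only Prdx2, Prdx3 and Prdx4, and other peroxiredoxins were not analysed here. Prdx3, a mitochondrial enzyme, gave 3963, 3894 and 3372 in brown fat and 2017, 1769 and 1856 in white fat. This was 1.99-fold higher in brown fat with no overlap (log2 difference 0.99, SE 0.08, adjusted p = 2.42e-06). The cytosolic Prdx2 was also higher in brown fat, with 2417, 2657 and 2538 against 1486, 1404 and 1356 (1.79-fold, 0.84, SE 0.06, adjusted p = 1.93e-06). Its second probe set was called the same way (0.56, adjusted p = 0.00404). That probe set was not called with the deposited scaling (0.05, adjusted p = 0.741) or the spike-in scaling (0.05, adjusted p = 0.818). Prdx4, the peroxiredoxin of the endoplasmic reticulum, ran the other way, with 331, 344 and 373 in brown fat and 531, 462 and 578 in white fat. It was 1.49-fold higher in white fat (-0.58, SE 0.11, adjusted p = 0.00111), and its second tested probe set was called the same way (-0.64, adjusted p = 0.0322).

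To set the compartments side by side without any scaling between arrays, the log2 ratio of the deposited signals of 2 probe sets was taken within each array. The pairs were chosen after the values had been seen, so the ratios are given with no test, and only their difference between tissues has a meaning, since levels of different probe sets are not comparable. The log2 ratio of Sod2 to Sod1 was 1.05, 0.98 and 1.10 on the brown arrays and -0.63, -0.72 and -0.78 on the white arrays, a difference of 1.75. That of Txn2 to Txn1 was higher by 1.28 in brown fat (-0.89 ± 0.18 against -2.17 ± 0.03, SD, n = 3). That of Txnrd2 to Txnrd1 was higher by 1.61 (-1.44 ± 0.57 against -3.05 ± 0.48, SD, n = 3). That of Prdx3 to Prdx2 was higher by only 0.24 (0.63 ± 0.15 against 0.38 ± 0.07, SD, n = 3). In each of the 4 pairs all brown arrays lay above all white arrays. No share over other pairs of genes was taken, and 67.3% of all genes tested, taken singly, did not overlap between the tissues.

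**Figure D3:**
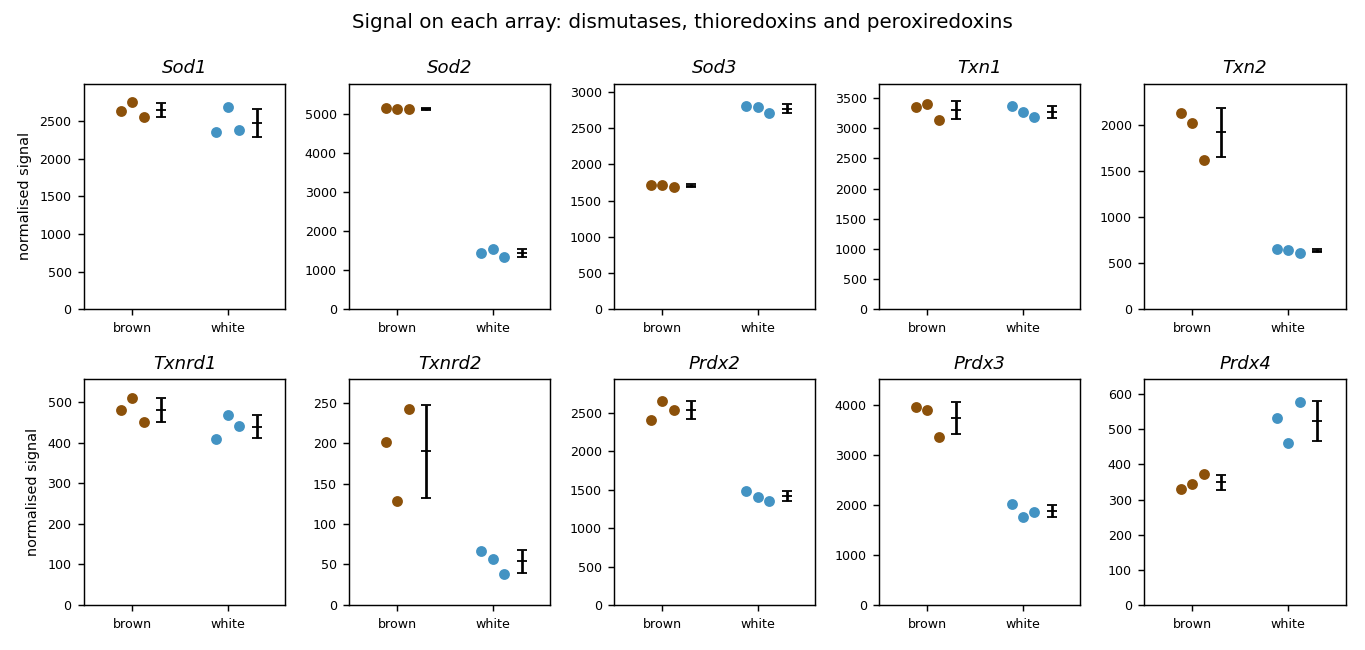
Normalised signal (y axis, linear, from 0) of dismutases, thioredoxins, their reductases and peroxiredoxins on each of the 3 brown and 3 white arrays, with the mean and SD of each tissue as a bar. Sod2, Txn2, Txnrd2, Prdx2 and Prdx3 stand apart in favour of brown fat and Sod3 and Prdx4 in favour of white fat, while the points of Sod1, Txn1 and Txnrd1 overlap between tissues.

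The glutathione peroxidases ran in both directions, with 3 tested members higher in brown and 2 higher in white fat. Gpx8, a peroxidase of the endoplasmic reticulum membrane, gave 1223, 1187 and 1164 in brown fat and 259.8, 297 and 273 in white fat. With 1 probe set per gene and quantile normalisation, it had the largest difference of any member in favour of brown fat. This was 4.32-fold (log2 difference 2.11, SE 0.08, adjusted p = 2.14e-08). A Sod2 probe set outside that ranking reached 2.12. The ranked Sod2 probe set exceeded Gpx8 with the deposited scaling (1.75 against 1.71), the spike-in scaling (1.75 against 1.72) and centring on the array median (2.19 against 2.16). Gpx7, its relative in the same organelle, was dim and gave 123, 94.9 and 124 in brown fat and 188, 153 and 146 in white fat. It was 1.42-fold higher in white fat (-0.51, SE 0.17, adjusted p = 0.0261), but this call was lost without brown replicate 2 (adjusted p = 0.0736), white replicate 1 (0.103) or white replicate 2 (0.0506), and when no probe set was filtered (0.0532). Gpx1, the abundant selenoenzyme that reduces hydrogen peroxide in the cytosol and in mitochondria, gave 4132, 4286 and 4224 in brown fat and 6609, 7129.9 and 7849 in white fat. Every white array was above every brown array (1.70-fold, -0.77, SE 0.06, adjusted p = 3.27e-06). Gpx4, which reduces lipid hydroperoxides within membranes, gave 8242, 8356 and 8356 in brown fat and 6977, 6427 and 6678 in white fat, and was 1.24-fold higher in brown fat (0.31, SE 0.04, adjusted p = 0.000148). Its second probe set was called the same way (0.40, adjusted p = 8.74e-05).

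Gpx3, the secreted plasma peroxidase, gave 8421, 8127 and 8514 in brown fat and 7952, 7349.7 and 7537 in white fat. It differed by 1.10-fold (log2 difference 0.13, SE 0.04, adjusted p = 0.025). The call was lost without brown replicate 1 (adjusted p = 0.0658), brown replicate 3 (0.0746), white replicate 2 (0.111) or white replicate 3 (0.0629), and it was also lost when no probe set was filtered (0.0771) or no trend was fitted (0.229). Gpx2, Gpx5 and Gpx6 were called absent on all 6 arrays. Gpx5, a secreted enzyme known from the epididymis, gave 47.9 to 54.8 in brown fat and 45.5 to 54.9 in white fat, and its absence calls stood beside those of the epididymis markers.

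In glutathione synthesis the subunits of the first step, Gclc and its modifier Gclm, were not called, and the synthetase of the second step was higher in brown fat. Gclc gave 141, 83.1 and 114 in brown fat and 129.6, 150.4 and 165 in white fat, which overlapped, and was not called (log2 difference -0.42, SE 0.20, adjusted p = 0.105). Its other probe set was higher in white fat (-0.70, adjusted p = 0.00434), and the first was called the same way when brown replicate 1 was left out (-0.60, adjusted p = 0.0301), and likewise under the deposited scaling (-0.98, adjusted p = 0.00179), with the spike-in scaling (-0.98, adjusted p = 0.000819) and with the mean over its probe sets (-0.56, adjusted p = 0.0148). Gclm gave 308, 426 and 454 in brown fat and 332, 303 and 359 in white fat and was not called (0.24, SE 0.15, adjusted p = 0.198), though it was called higher in brown fat without brown replicate 1 (0.41, adjusted p = 0.0155). The other probe set of Gclm ran the other way and was not called (-0.38, adjusted p = 0.0666). That probe set was called higher in white fat with centring on the array median (-0.48, adjusted p = 0.0282), the deposited scaling (-0.92, adjusted p = 0.000516) and the spike-in scaling (-0.92, adjusted p = 0.00144). Gss, the synthetase of the second step, gave 187, 270.0 and 188 in brown fat and 111, 97.5 and 119.5 in white fat. It was 1.94-fold higher in brown fat (0.96, SE 0.17, adjusted p = 0.00105) and its other probe set was called the same way (1.09, adjusted p = 0.000374). With the deposited scaling (0.41, adjusted p = 0.0606) and the spike-in scaling (0.42, adjusted p = 0.0841) the first probe set of Gss was not called. The other was still called higher in brown fat, at 0.55 with either scaling (adjusted p = 0.0178 and 0.0212). Gsr, which reduces oxidised glutathione, gave 227, 247 and 183 in brown fat and 285, 343 and 359 in white fat. It was 1.51-fold higher in white fat (-0.59, SE 0.14, adjusted p = 0.00577), as was its other probe set (-0.40, adjusted p = 0.0308).

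The alpha class of transferases held the widest spread. Gsta3, an alpha transferase known in mouse for detoxifying aflatoxin, gave 31.5, 17.1 and 18.5 on the brown arrays, all called absent, and 196, 202 and 176 on the white arrays, all called present. It was at least 8.87-fold higher in white fat (adjusted p = 3.7e-06). Its other probe set, also absent on all brown arrays, gave 2.23, 6.30 and 8.57 in brown fat and 633, 656 and 635 in white fat, at least 83.1-fold higher (adjusted p = 4.51e-07). Gsta4, which conjugates the lipid aldehyde 4-hydroxynonenal, ran the other way. It gave 825, 858 and 738 in brown fat and 249.7, 178 and 201 in white fat and was 3.88-fold higher in brown fat with no overlap (log2 difference 1.96, SE 0.13, adjusted p = 9.09e-07). Gsta2 was absent on all 6 arrays. The second bound sets the brown arrays at their lowest signals called present, 6.79, 7.49 and 9.03.

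Genes of the mu class lie side by side on chromosome 3 in the order Gstm5, Gstm7, Gstm6, Gstm3, Gstm2, Gstm1 and Gstm4, with 0 other coding genes between them, and neighbours there were called in different directions. Gstm2 gave 451, 452 and 515 in brown fat and 1367, 1299 and 1412 in white fat, 2.88-fold higher in white fat (log2 difference -1.53, SE 0.08, adjusted p = 1.74e-07). Gstm1, next to it, gave 1243, 1227 and 1401 in brown fat and 2960.4, 3036 and 3081 in white fat, 2.35-fold higher in white fat (-1.23, SE 0.07, adjusted p = 1.71e-07). A second probe set of Gstm1 was called the same way (-0.97, adjusted p = 1.42e-06), and 2 more, absent on every brown array, were not called (-0.49 and 0.07). Gstm4, at the end of the row, gave 281, 314 and 265 in brown fat and 201, 181 and 195 in white fat. It was 1.49-fold higher in brown fat (0.57, SE 0.11, adjusted p = 0.00184), but was not called with the deposited scaling (0.06, adjusted p = 0.647) or the spike-in scaling (0.06, adjusted p = 0.765). Gstm5 gave 1104, 1145 and 1345 in brown fat and 854, 1329 and 1312 in white fat and was not called (0.06, SE 0.16, adjusted p = 0.759). Gstm7 gave 184, 217 and 152 in brown fat and 125, 172 and 163 in white fat and was not called either (0.26, SE 0.18, adjusted p = 0.23). The mu transferases are close in sequence, and how far their probes also read a neighbouring gene was not tested.

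Gstp1, the pi class transferase, gave 2525, 2639 and 2396 in brown fat and 4069, 4199 and 4035 in white fat. It was 1.63-fold higher in white fat (log2 difference -0.70, SE 0.05, adjusted p = 2.11e-06). Gstp3 was absent on all 6 arrays.

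Of the theta, omega, zeta and kappa classes, 2 tested genes were higher in each tissue. Gstz1, the zeta enzyme that also isomerises maleylacetoacetate in tyrosine breakdown, gave 1520.1, 1363 and 1807 in brown fat and 4568, 4169.6 and 4169.6 in white fat. It was 2.77-fold higher in white fat (log2 difference -1.47, SE 0.09, adjusted p = 6.8e-07). Gstt1, a theta transferase that acts on small halogenated molecules, gave 336, 374 and 336 in brown fat and 893, 928 and 974 in white fat, 2.67-fold higher in white fat (-1.42, SE 0.08, adjusted p = 3.64e-07). Gstt2, in the same cluster on chromosome 10, gave 240.2, 299 and 333 in brown fat and 306, 354 and 245 in white fat, which overlapped, and was not called (-0.05, SE 0.16, adjusted p = 0.813). It was called higher in white fat with the deposited scaling (-0.54, adjusted p = 0.0126) and the spike-in scaling (-0.54, adjusted p = 0.0162). Gsto1, the omega enzyme that also reduces dehydroascorbate, gave 1925, 1693 and 2061 in brown fat and 752, 787 and 715 in white fat. It was 2.51-fold higher in brown fat (1.33, SE 0.08, adjusted p = 5.92e-07), and its second probe set was called the same way (1.11, adjusted p = 1.08e-06). Gstk1, the kappa enzyme of mitochondria and peroxisomes, gave 1021, 984 and 1043 in brown fat and 633, 739 and 694 in white fat, 1.48-fold higher in brown fat (0.56, SE 0.08, adjusted p = 0.000184). It was not called with the deposited scaling (0.20, adjusted p = 0.05, just above the threshold before rounding) or the spike-in scaling (0.20, adjusted p = 0.171).

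Microsomal transferases are membrane proteins that share the activity but not the fold of the soluble classes. Mgst3, which also reduces lipid hydroperoxides, gave 689.8, 897 and 850.4 in brown fat and 3617, 3217 and 3968 in white fat. It was 4.44-fold higher in white fat (log2 difference -2.15, SE 0.11, adjusted p = 1.15e-07), second only to Gsta3 among the members in that direction. Mgst1, an abundant enzyme of the endoplasmic reticulum and the outer mitochondrial membrane, gave 7750.0, 7931 and 7931 in brown fat and 9758, 9924 and 10282 in white fat. It was 1.27-fold higher in white fat (-0.34, SE 0.04, adjusted p = 3.66e-05), but higher in brown fat with centring on the array median (0.20, adjusted p = 0.00635). Mgst2 was present on 2 white arrays only and was not tested.

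**Figure D4:**
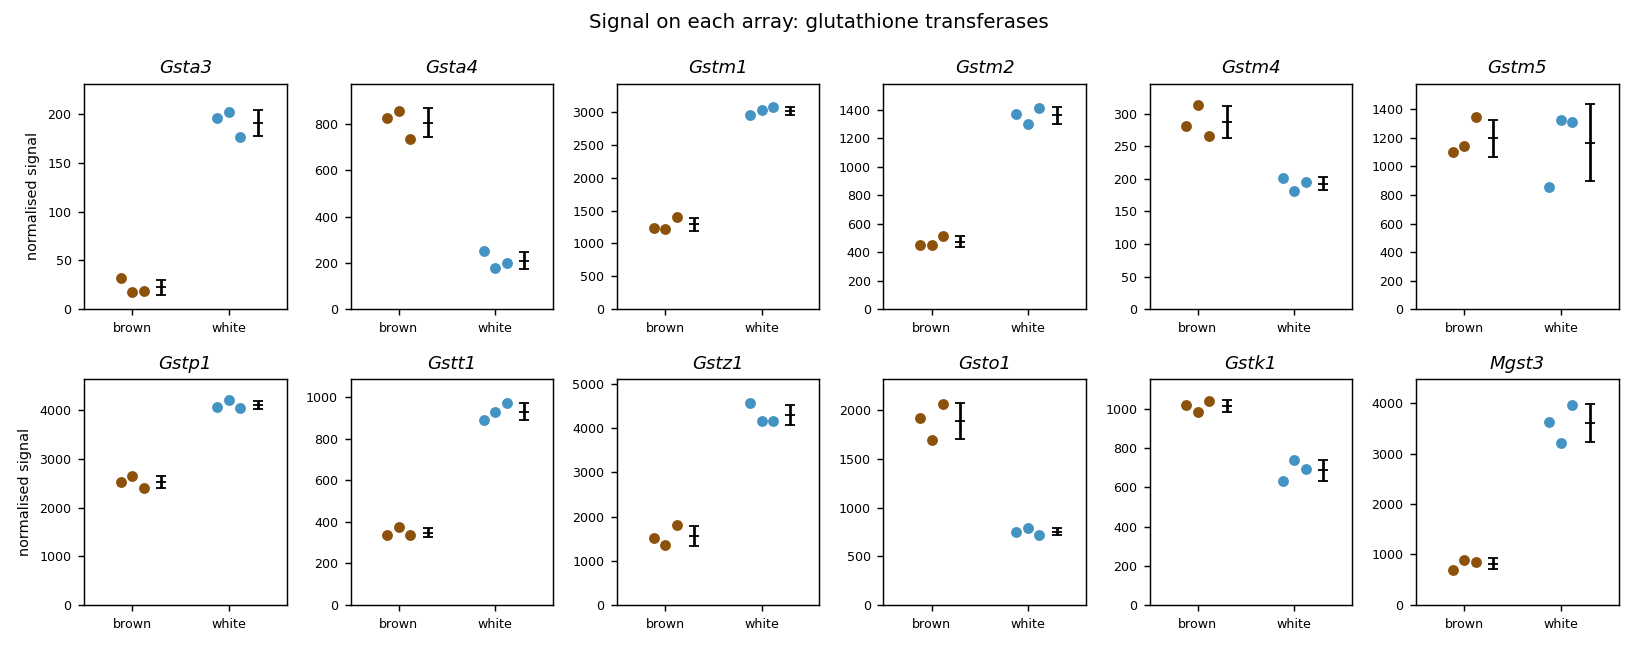
Normalised signal (y axis, linear, from 0) of 12 glutathione transferases on each of the 3 brown and 3 white arrays, with the mean and SD of each tissue as a bar. Gsta3, Gstm1, Gstm2, Gstp1, Gstt1, Gstz1 and Mgst3 are higher on all white arrays, Gsta4, Gstm4, Gsto1 and Gstk1 on all brown arrays, and Gstm5 overlaps.

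The wider pathway was read from 7 lists of genes outside these families. Of 104 genes with a probe set, 92 were tested, 30 were higher in brown fat, 36 were higher in white fat and 26 were not called, with a median log2 difference of -0.10. The shares of all genes tested were 27.7% higher in brown and 32.2% higher in white fat. Counts of each list below are read against these shares, and no test of a list was made. The balance moved with the scaling, to 21 higher in brown and 52 in white fat with the deposited scaling, against 14.9% and 55.8% of all genes. With the spike-in scaling the counts were 21 and 48, against 13.4% and 51.8%. With centring on the array median they were 34 and 27, against 27.4% and 32.3%. The genes G6pdx, Ggt1, Esd and Ftl1 were not analysed here.

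NADPH is the electron source for both systems, and of its 13 suppliers 6 were higher in brown and 3 in white fat. Me3, the mitochondrial malic enzyme that uses NADP, was 15.2-fold higher in brown fat (485 ± 18.5 against 33.3 ± 11.2, SD, n = 3; adjusted p = 3.76e-07). Idh2, the mitochondrial isocitrate dehydrogenase that makes NADPH, was 3.53-fold higher (2204 ± 90.9 against 627 ± 60.6; adjusted p = 5.52e-08), and Taldo1, transaldolase of the pentose phosphate pathway, 2.22-fold (adjusted p = 7.19e-08). Nnt, the transhydrogenase of the inner mitochondrial membrane, ran the other way and was 4.92-fold higher in white fat (59.9 ± 13.1 against 291 ± 27.0; adjusted p = 2.44e-06). Some C57BL/6 substrains carry a deletion in Nnt, and the substrain is not named in the labels. Aldh1l1, a folate dehydrogenase, and Idh1, the cytosolic isocitrate dehydrogenase, were higher in white fat, with log2 differences of -1.01 (adjusted p = 5.12e-06) and -0.34 (adjusted p = 0.000534), though Idh1 was higher in brown fat with centring on the array median (0.17, adjusted p = 0.0349). Me1, the cytosolic malic enzyme, was not called (-0.30, adjusted p = 0.0642), and was called higher in white fat without brown replicate 1 (adjusted p = 0.0272) or white replicate 3 (0.044), with the deposited scaling (0.0355), with 64 signal units added (0.0487), with probe sets present on all 6 arrays (0.0495) and with the replicate number as a block (0.0402). The number higher in white fat was 5 without brown replicate 2.

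Of the glutaredoxins and thioredoxin-like proteins, 4 were higher in each tissue and 4 were not called. Glrx, the cytosolic glutaredoxin, was 2.61-fold higher in brown fat (adjusted p = 6.15e-05), Glrx2, its mitochondrial relative, 1.85-fold (adjusted p = 1.02e-05) and Txndc12 of the endoplasmic reticulum 1.47-fold (adjusted p = 0.000637). Txndc5, a protein disulfide isomerase, was 3.15-fold higher in white fat (adjusted p = 2.02e-06), Txnip, the thioredoxin-binding protein, 1.49-fold (adjusted p = 2.27e-06) and Txndc17 1.47-fold (adjusted p = 7.2e-05). With centring on the array median Txnip was not called (-0.034, adjusted p = 0.611). Txndc12 was not called with the deposited scaling (0.12, adjusted p = 0.28) or the spike-in scaling (0.12, adjusted p = 0.512). Txndc17 was not called with the mean over its probe sets (-0.13, adjusted p = 0.37) or without probe sets that read several transcripts (-0.15, adjusted p = 0.218). Txnl4a was not called (0.18, adjusted p = 0.0901), but was called higher in white fat with the deposited scaling (-0.24, adjusted p = 0.0294).

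Of 13 tested genes of glutathione turnover and cysteine supply, 6 were higher in brown and 5 in white fat. Oplah, the 5-oxoprolinase that recycles glutamate from glutathione breakdown, was 4.68-fold higher in brown fat (1266 ± 246 against 267 ± 8.38, SD, n = 3; adjusted p = 2.74e-07). Hagh, which releases glutathione in methylglyoxal removal, was 2.44-fold higher (adjusted p = 2.92e-06) and Ggt5, a gamma-glutamyl transferase, 1.97-fold (adjusted p = 0.000456). Slc25a39, the carrier that brings glutathione into mitochondria, was 1.70-fold higher in brown fat (adjusted p = 6.05e-07). Dpep1, a dipeptidase, was 2.35-fold higher in white fat (adjusted p = 9.38e-06), and Slc3a2, a subunit of amino acid exchangers, and Chac1, which degrades glutathione, were higher there by 1.82-fold (adjusted p = 1.46e-05) and 1.80-fold (adjusted p = 0.00565). Cbs, which makes cystathionine, was not called (0.30, adjusted p = 0.401).

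Genes of peroxide removal and of methionine sulfoxide repair gave 3 higher in brown, 7 higher in white fat and 4 not called. Msrb2, the mitochondrial methionine sulfoxide reductase, was 5.19-fold higher in brown fat (571 ± 56.0 against 109.9 ± 10.8, SD, n = 3; adjusted p = 1.37e-07), and Msra 2.13-fold (adjusted p = 1.68e-06). Msrb1 of the cytosol and nucleus and Msrb3 were higher in white fat, by 1.64-fold (adjusted p = 8.29e-06) and 1.90-fold (adjusted p = 2.03e-05), and Sesn1, a sestrin, by 2.83-fold (adjusted p = 1.74e-05). Cat, the peroxisomal catalase, gave 2952, 3198 and 3091 in brown fat and 3753, 3690.4 and 3610.4 in white fat. It was 1.20-fold higher in white fat (-0.26, adjusted p = 0.0016), but higher in brown fat with centring on the array median (0.21, adjusted p = 0.00812), and not called with the spike-in scaling (-0.24, adjusted p = 0.0619). Mt1, a metallothionein, was not called (0.22, adjusted p = 0.129), but was called higher in brown fat with centring on the array median (0.74, adjusted p = 0.000633), with the mean over its probe sets (0.63, adjusted p = 0.000666) and without probe sets that read several transcripts (1.04, adjusted p = 0.00249).

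Among genes of selenoprotein synthesis and other selenoproteins, 7 of 18 tested were higher in each tissue, though only 2 were higher in brown fat with the deposited or the spike-in scaling, and 4 without white replicate 3. Dio2, the selenoenzyme that activates thyroid hormone, was at least 23.2-fold higher in brown fat (722, 391 and 553 against 55.0, 12.6 and 18.1, all absent; adjusted p = 2.03e-05). Sephs2, which makes the selenium donor, was 1.66-fold higher (adjusted p = 4.73e-05) and Selenoo 1.68-fold (adjusted p = 0.002), the latter not called with the deposited scaling (0.22, adjusted p = 0.212) or the spike-in scaling (0.22, adjusted p = 0.322). Selenon was 4.31-fold higher in white fat (adjusted p = 3.78e-07), Selenom 2.31-fold (adjusted p = 1.64e-05) and Selenow 1.96-fold (adjusted p = 2.85e-06). Selenos was not called (-0.04, adjusted p = 0.684), but was called higher in white fat with the deposited scaling (-0.42, adjusted p = 0.000589) and the spike-in scaling (-0.42, adjusted p = 0.0105).

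Of 11 tested genes listed as oxidant producers, 2 were higher in brown and 6 in white fat, and the 2 include the protective enzyme Aifm2. Cyba and Cybb, the membrane subunits of the phagocyte NADPH oxidase, were 9.67-fold (76.8 ± 8.55 against 739.7 ± 38.3, SD, n = 3; adjusted p = 1.35e-08) and 7.33-fold higher in white fat (adjusted p = 5.74e-08). They ran beside the macrophage markers, whose part was not tested. Xdh, xanthine oxidoreductase, was 2.74-fold higher in white fat (adjusted p = 5.7e-08). Aifm2, a reductase of coenzyme Q that protects membrane lipids, and Maob, a monoamine oxidase of the outer mitochondrial membrane, were higher in brown fat by 1.95-fold (adjusted p = 2.47e-06) and 1.52-fold (adjusted p = 4.93e-05). Ero1a was not called (0.17, adjusted p = 0.208), but was called higher in white fat with the deposited scaling (-0.30, adjusted p = 0.0315).

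The NRF2 system, which controls many of these enzymes through the antioxidant response element, had 2 of 11 tested genes higher in brown and 4 higher in white fat. Nfe2l2, which encodes NRF2, gave 846, 873 and 887 in brown fat and 979, 981 and 1058 in white fat (log2 difference -0.21, adjusted p = 0.0252). Its call was lost without brown replicate 1 (adjusted p = 0.0746) or white replicate 3 (0.099) and with centring on the array median (-0.12, adjusted p = 0.203) or no trend (adjusted p = 0.0835). Keap1, which marks NRF2 for destruction, was 1.28-fold higher in brown fat (adjusted p = 0.0326). That call was lost without brown replicate 2 (adjusted p = 0.102), brown replicate 3 (0.0593), white replicate 1 (0.107) or white replicate 3 (0.0893), with no filter (0.0563) or no trend (0.0645), and the log2 difference was -0.11 with the deposited or the spike-in scaling. Srxn1, the sulfiredoxin that repairs overoxidised peroxiredoxins and a known NRF2 target, was 2.05-fold higher in brown fat (275 ± 39.2 against 134 ± 15.7, SD, n = 3; adjusted p = 0.000202). Ephx1, an epoxide hydrolase, Mafg, a partner of NRF2, and Sqstm1, an autophagy receptor, were higher in white fat, with log2 differences of -0.86 (adjusted p = 4.73e-05), -0.56 (adjusted p = 0.00566) and -0.40 (adjusted p = 0.00163). Sqstm1 was not called with centring on the array median (-0.20, adjusted p = 0.052) or with the mean over its probe sets (0.089, adjusted p = 0.602). Hmox1, heme oxygenase, was not called (-0.44, adjusted p = 0.258), and was called higher in white fat without white replicate 1 (-0.81, adjusted p = 0.0169), with the deposited scaling (-0.97, adjusted p = 0.0183) and with the spike-in scaling (-0.97, adjusted p = 0.00323). Nfe2l1, a relative of NRF2, was not called (0.11, adjusted p = 0.273). Among the alternatives run on the array files, Nfe2l1 was called higher in brown fat only with centring on the array median (0.28, adjusted p = 0.011). Nqo1, Slc7a11 and Osgin1 were present on too few arrays to be tested.

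**Figure D5:**
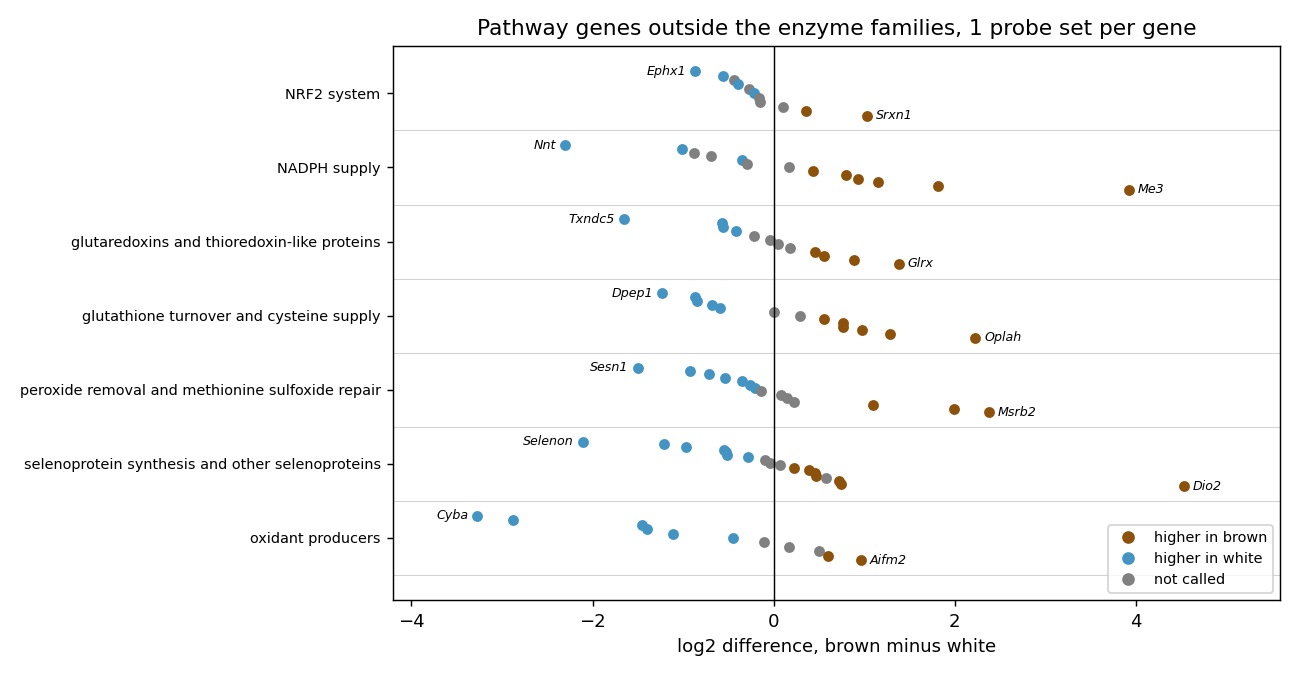
Log2 difference, brown minus white (x axis), of the 92 tested pathway genes in 7 lists, with each point a gene and the gene at either end of each list named. The points range from -3.27 for Cyba to 4.53 for Dio2, and every list holds genes on both sides of 0.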

How the data were processed

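The deposited files of the 6 arrays (Affymetrix mouse 430_2, 1 colour) hold, per the file headers, a linear intensity for each probe set with a detection call and its p-value. Software and scaling were not given in the sources used here. A deposited series-wide table of intensity served only as an alternative. From the array files, 64 control probe sets were left out of 45101, 1 signal of 0 was set to 0.1, and log2 signals were quantile-normalised. Of 45037 probe sets, 19819 present on at least 3 of 6 arrays were fitted in R 4.3.3 by the limma functions lmFit and eBayes (version 3.58.1, trend on), with Benjamini-Hochberg adjustment over all of them and a threshold of 0.05. The fit was tested on simulated data.

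Each gene was represented by its tested probe set of highest mean log2 signal, among those with 1 symbol in the platform annotation (34945, with 932 carrying several symbols and 9160 none). Folds are ratios of geometric means, and means and SDs are of linear signals. A fold is a lower bound where all dimmer arrays were called absent, each then set at the higher of its own signal and the lowest signal called present on that array. The lists, the members and the tests were chosen with earlier results of these data known. Every member is named, and up to 3 called genes in each direction by size of difference and 1 not called with the highest signal are named from each pathway list, along with Nfe2l2, Keap1, Cat, Nqo1, Hmox1 and Txnip. Slc25a39 was named after its value was seen. The design text calls the arrays of a tissue biological replicates, and 3 arrays per tissue limit the precision. Promoters are from RefSeq (GRCm38.p6), matched by symbol for 40 of the 45 genes, and Gclc, Gsr, Gsta4, Gstt2 and Sod3 had no match. Alternatives covered scaling, detection filter, trend, offset, choice of probe set, a replicate block and leaving out each array.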

Additional observations from a re-analysis of the deposited data

How the results depend on the processing

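Of the 34 member gene results, 20 kept their direction and their side of the threshold under every alternative run on the array files. For 18 of these that means 17 alternatives, and for Txnrd2 and Gsta3 16, as each had no tested probe set under 1 of them. Txnrd1 turned from 0.13 to -0.30 on the log2 scale with the deposited scaling, and Mgst1 from -0.34 to 0.20 with centring on the array median. The median of the members was 0.08, and it became -0.24 with the deposited scaling, -0.24 with the spike-in scaling, -0.019 with the mean over the probe sets of a gene and 0.21 with centring on the array median. The median of all genes moved as well, from -0.04 to -0.50 with the deposited and the spike-in scaling, and the members lay 0.26 above all genes there, 0.12 above them after quantile normalisation, 0.034 with no detection filter and 0.011 with the mean over the probe sets of a gene. In the series-wide table the tissues are reversed against the array files (r = -0.86 between their differences over 19819 probe sets), and 25 of the 26 called members had the opposite sign there. Taken as named, its columns put 20 members higher in brown and 7 higher in white fat, where the array files gave 13 and 13. The share of all genes called is not given here for that table, the left-out arrays, the replicate block or other filters. Counts of members or pathway genes under those settings are therefore no result about these genes. Its column medians were 62.9 to 64.3 for columns named brown and 55.9 to 56.8 for those named white. Its scale is linear and its centring is unknown. The cause of these moves was not tested. Leaving out each array in turn gave 12 to 13 members higher in brown and 12 to 14 higher in white fat, with medians of 0.05 to 0.13. With the replicate number as a block, 13 and 13 members and 30 and 37 pathway genes were higher in brown and white fat, and no member call changed. By the design text both tissues came from 3 mice, but no label ties a replicate number to a mouse. Deviations of same-numbered arrays from their tissue mean correlated at 0.017, -0.014 and -0.046. With 3 arrays per tissue this cannot tell whether the numbers pair the arrays. With probe sets marked as reading several transcripts left out, Txnrd2 had no tested probe set and 12 members were higher in brown fat. Detection limits what could be tested, since 23 of the 79 probe sets were present on too few arrays.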

Other observations

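Some probe sets of the members were present on too few arrays to be tested but gave signals that did not overlap between the tissues. The ones below are examples, and no share over all untested probe sets was taken. Gsto2, the neighbour of Gsto1 on chromosome 19, gave 97.6, 114 and 109.7 on the brown arrays and 26.4, 29.3 and 24.4 on the white arrays, with all 6 called absent. Gstt3, beside Gstt1 on chromosome 10, gave 75.2, 43.8 and 55.3 in brown fat and 181, 186 and 196 in white fat, also all called absent. A probe set of Txnrd2 called marginal on 1 brown array and absent on the other 5 gave 511, 539 and 389 in brown fat and 80.2, 93.6 and 83.7 in white fat. Gpx6 gave 42.1 to 79.3 in brown fat and 3.02 to 37.3 in white fat, with all 6 called absent. These signals have no test, and an absent call means that the matching probes were not clearly brighter than their mismatch controls.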
